A study of Caenorhabditis elegans with 6 samples.

Results

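The genes described here are the Wnt ligands and Wnt receptors of *Caenorhabditis elegans*: the ligand genes lin-44, egl-20, cwn-1, cwn-2 and mom-2, and the receptor genes lin-17, lin-18, mig-1, cfz-2 and mom-5. All probe sets (groups of array probes read as 1 value) whose platform annotation names one of these 10 genes were taken, which gave 14 of the 22548 probe sets tested. All 10 genes were measured, with 5 ligand probe sets and 9 receptor probe sets, and every one of the 14 entered the test, since no filter on low values was applied. RNA of whole L4 larvae, the last larval stage, was profiled on Affymetrix single-colour arrays in worms carrying alg-1(gk214), a mutation of the microRNA Argonaute gene alg-1, and in N2, the wild type strain. There were 3 arrays per genotype. Both groups were synchronized and grown at 25 °C on OP50 bacteria, and neither received any other treatment per the labels. The series asks how expression differs when ALG-1, the protein that loads microRNAs, is impaired.

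Wnt proteins are secreted, lipid-bearing signals that bind Frizzled and Ryk receptors on the surface of other cells. In the canonical branch the bound receptor acts through Dishevelled to stop a destruction complex from removing beta-catenin, which then works with the factor POP-1 in the nucleus; a related branch lowers nuclear POP-1 through the kinase LIT-1. In worm larvae these signals orient asymmetric divisions, guide migrating neuroblasts and axons, and help to set the fates of vulval precursor cells. The receptors LIN-17, MIG-1, CFZ-2 and MOM-5 are Frizzled proteins, and LIN-18 is a Ryk protein, a different class of Wnt receptor.

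Values are the authors' log2 probe set values, given as mean ± SD over 3 arrays, and changes are mutant minus wild type on that log2 scale. A change is called where limma's adjusted p is under 0.05 over all 22548 probe sets. Arrays of 1 genotype correlated at 0.994 to 0.998 across probe sets, and arrays of different genotypes at 0.968 to 0.976. Of the 3 alg-1 probe sets, the brightest fell by 0.73 in the mutant (SE 0.085, adjusted p = 0.000245) and another by 0.62 (adjusted p = 0.00977), while the last overlapped between the groups (−0.10, adjusted p = 0.748). No source used here tells where their probes lie relative to the deletion. Wild type replicate 3 stood apart by its GAPDH control probe sets, with a 3′ minus 5′ difference of −0.58 log2 against −0.23 to −0.14 on the other arrays. Calls that were lost or gained without it are given with both values. Levels of different probe sets are not compared with each other, because each has its own probes.

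Read from their brightest probe sets, most of the measured Wnt ligand and receptor genes differed modestly between the genotypes, mainly upward in the mutant. Of the 14 probe sets, 8 were higher, 1 was lower and 5 were not called, so 64.3% were called against 33.7% of all probe sets. Higher calls made up 57.1% of the 14 and 14.8% of all probe sets, while lower calls made up 7.14% and 18.9%. The groups did not overlap in 10 of the 14, or 71.4%, against 48.0% of all probe sets. The median change of the 14 was 0.25, and that of all probe sets was −0.05. None of the 14 reached a 2-fold change, a size that 4.86% of all probe sets reached with a call. When each gene was read from its brightest probe set, 6 genes were higher (cwn-1, cwn-2, lin-17, mig-1, cfz-2 and mom-5), 1 was lower (mom-2) and 3 were not called (lin-44, egl-20 and lin-18). Over all 17118 genes read in that way, 34.6% were called, of which the higher calls were 14.4% of all genes and the lower calls 20.1%. The member calls depended on this reading. With limma on the mean over a gene's probe sets, 5 of the 10 genes were called. Lin-17 (0.20, adjusted p = 0.0566) and mom-5 (−0.00, adjusted p = 0.982) then did not pass. On the brightest probe sets, 4 genes were called without mutant replicate 1. In RNA of whole worms, fewer cells of a type and less RNA per cell cannot be told apart.

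**Figure D1:**
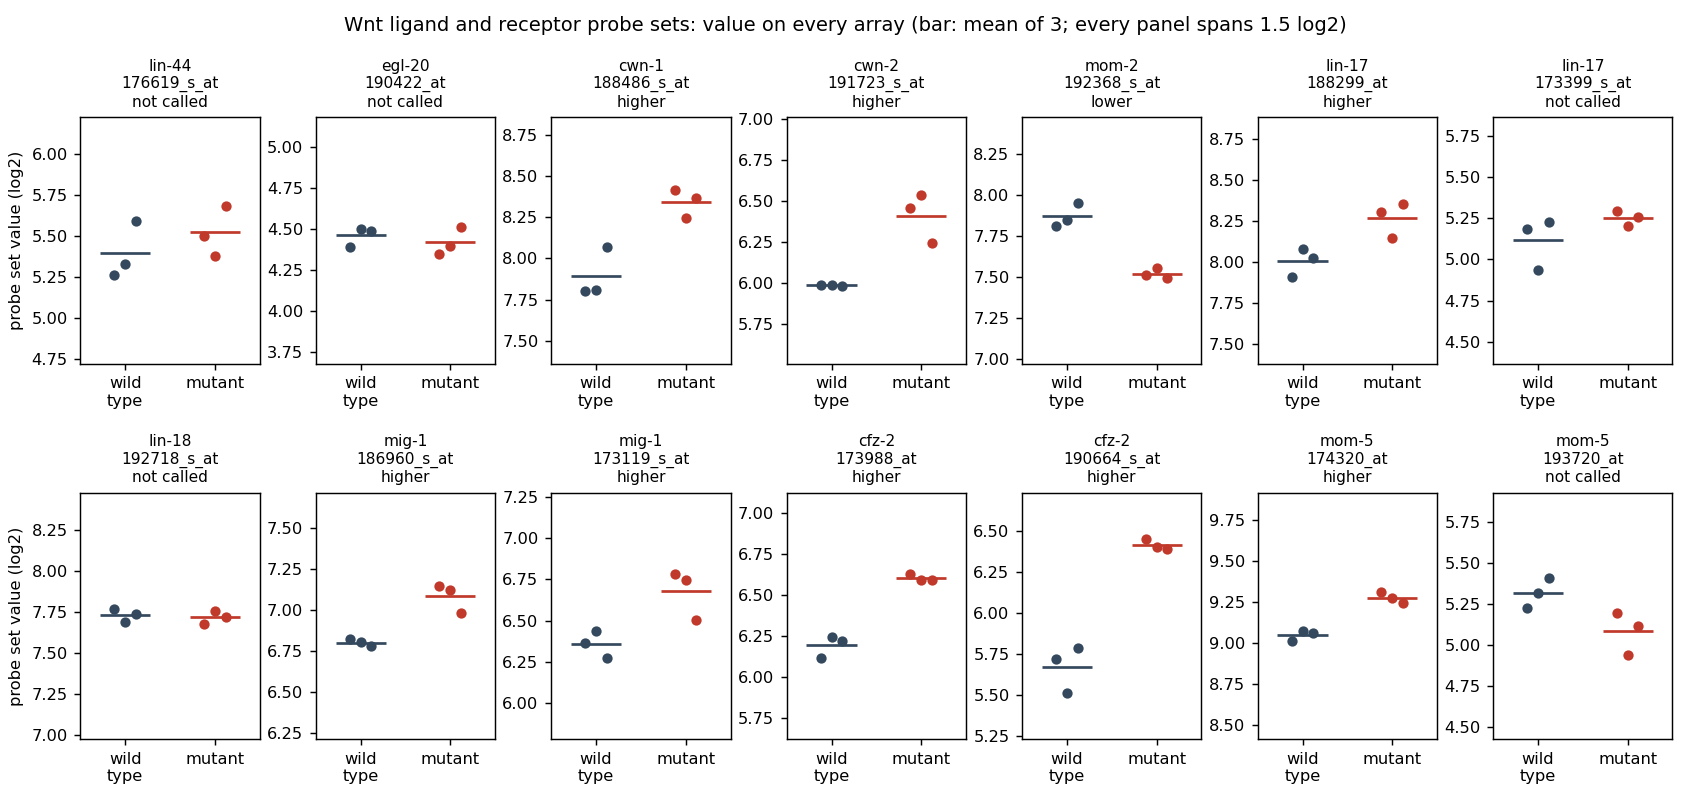
Value of each Wnt ligand and receptor probe set on every array (y axis, log2, each panel spanning 1.5 log2), with dots for single arrays, bars for the mean of 3, and the call in the panel title. The mutant arrays lie above all wild type arrays in 8 panels and below them in 2, of which the second mom-5 panel was not called.

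Among the ligands, cwn-1 and cwn-2 rose and mom-2 fell, while lin-44 and egl-20 did not pass the test. The cwn-1 gene (K10B4.6) encodes a Wnt that acts with other Wnts in neuronal migration and in vulval fate, and it is known to be made in posterior body wall muscle and ventral cord neurons. It read 8.42, 8.24 and 8.37 in mutants, against 7.80, 7.81 and 8.07 for wild type worms. All mutant arrays lay above all wild type arrays, and the highest wild type value was that of replicate 3. The means of 8.34 ± 0.09 and 7.89 ± 0.15 (SD, n = 3) gave a change of 0.45 (SE 0.093, adjusted p = 0.00569), a 1.37-fold higher level. Without wild type replicate 3 the change was 0.54 (adjusted p = 0.00169).

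The cwn-2 gene (W01B6.1), whose Wnt acts in neuronal migration and in the placing of the nerve ring, behaved alike in size. It read 6.45, 6.53 and 6.24 in mutants, against 5.99, 5.99 and 5.98 for wild type worms. The wild type arrays were nearly identical, and the lowest mutant array, replicate 3, still lay above them. The change was 0.42 (SE 0.086, adjusted p = 0.00518), or 1.34-fold.

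The mom-2 gene (F38E1.7) encodes the Wnt that polarizes an early embryonic cell to make endoderm, and it also acts from the gonadal anchor cell on vulval cells. It read 7.51, 7.55 and 7.49 in mutants, against 7.81, 7.85 and 7.95 for wild type worms, with no overlap. It fell by 0.35 (SE 0.070, adjusted p = 0.0049), so that the wild type level was 1.27-fold higher. Centring arrays on the hybridization controls, bacterial and phage transcripts added to each sample, ended this call, at −0.22 (adjusted p = 0.0612). That centring moves the median change of all probe sets from −0.05 to 0.08, so the fall of mom-2 is best read relative to the shift of the whole array.

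Beside these ligands, the marker lists of the tissues differed between the genotypes by unequal amounts. Of 8 germline markers, 7 fell and 0 rose, with a median of −0.74, and all 6 sperm markers fell, with a median of −0.81. The mean of the germline list ran from −0.72 to −0.60 log2 on the mutant arrays and from −0.06 to 0.05 on the wild type arrays, both relative to the wild type mean. Whether the lower germline signal has a part in the mom-2 result was not tested. Of 6 body wall muscle markers 0 passed the test in either direction, with a median of −0.08, beside the rise of cwn-1. By limma without adjustment, 2 of them, unc-89 (−0.19) and unc-15 (−0.17), named after their values were seen, had a p under 0.05. Whether the amount of muscle or neuronal RNA has a part in the cwn-1 result was not tested. Of 8 neuronal markers 2 rose and 1 fell, with a median of 0.10. The rises were those of egl-3 (0.44) and rab-3 (0.32), at the 96.2nd and 80.8th percentiles of mean signal. The fall was that of unc-31 (−0.28), at the 15.8th percentile. The uncalled snb-1 (0.18) had a p under 0.05 by limma without adjustment. These neuronal markers were named after their values were seen. Other somatic lists went different ways. Of 4 pharynx markers 3 fell and 1 rose, with a median of −0.59. Of 4 measured intestine markers 2 fell and 0 rose, with a median of −0.12 beside −0.05 for all probe sets. By limma without adjustment, the intestine marker ges-1 (0.26), named after its values were seen, had a p under 0.05. The epidermis and seam list, given below with the stage markers, had a median of 0.77.

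**Figure D2:**
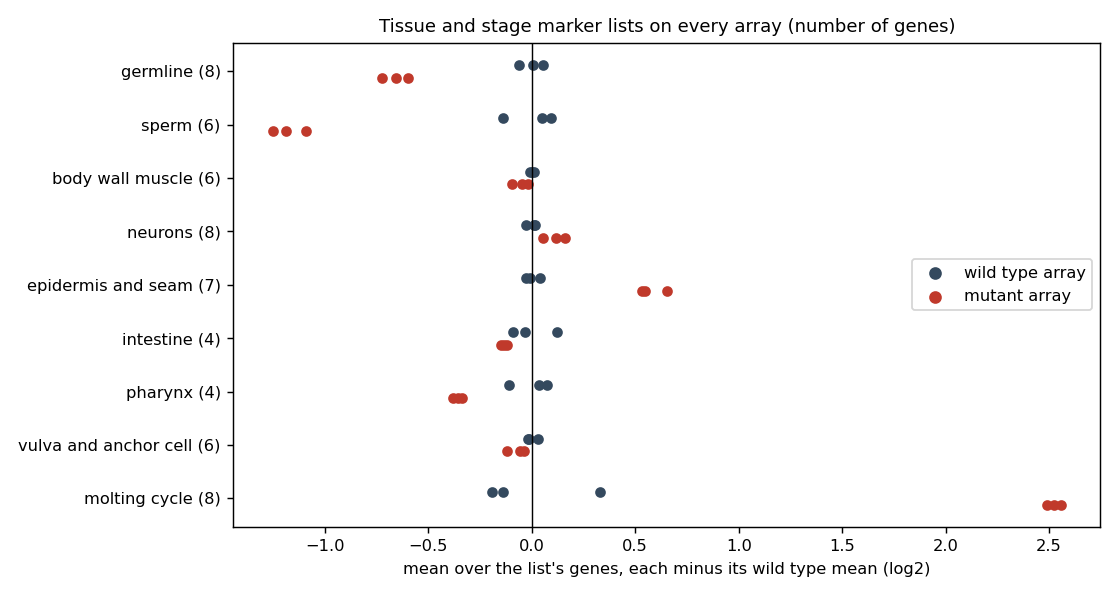
Mean over the genes of each tissue or stage marker list on every array (x axis, log2, each gene relative to its wild type mean), with the number of genes in brackets. Sperm and germline lists sit lowest on the mutant arrays, body wall muscle sits near 0, and the molting list lies at 2.49 to 2.56 on the mutant arrays.

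The remaining ligands are known for their roles in the tail and the posterior body. The lin-44 gene (E01A2.3), whose Wnt from the tail epidermis polarizes divisions of neighbouring tail cells, read 5.50, 5.38 and 5.68 in mutants, against 5.26, 5.33 and 5.59 for wild type worms. The groups overlapped, and the difference was 0.13 (95% interval −0.12 to 0.38, adjusted p = 0.419). The egl-20 gene (W08D2.1), whose Wnt forms a posterior gradient that steers the QL neuroblast, read 4.35, 4.40 and 4.51 in mutants, against 4.39, 4.50 and 4.49 for wild type worms. These groups overlapped too, with a difference of −0.04 (95% interval −0.21 to 0.13, adjusted p = 0.712). Its probe set lay at the 23.2nd percentile of mean signal, in the dim range where calls were less frequent over the whole array.

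Among the receptors, the Frizzled genes cfz-2, mig-1, lin-17 and mom-5 were each higher on their brightest probe set, and the Ryk gene lin-18 was not called. Of the 9 receptor probe sets, 6 were higher by limma, 0 were lower and 3 were not called, with a median change of 0.26. That is 66.7% higher and 0% lower, against 14.8% and 18.9% of all probe sets, whose median change was −0.05. With no adjustment, the only fall at p under 0.05 was that of the dimmer mom-5 probe set.

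The cfz-2 gene (F27E11.3) encodes a Frizzled known for roles in cell migration and axon positioning. Its dimmer probe set, 190664_s_at, had the largest change of the 14 probe sets. On the brightest probe set of each gene, cfz-2 changed by 0.41, less than cwn-1 (0.45) and cwn-2 (0.42). The dimmer cfz-2 probe set read 6.45, 6.40 and 6.39 in mutants, against 5.72, 5.51 and 5.78 for wild type worms. The change was 0.74 (SE 0.085, adjusted p = 0.000245), a 1.67-fold higher level. The other probe set, 173988_at, read 6.62, 6.59 and 6.59 in mutants, against 6.12, 6.25 and 6.22 for wild type worms, a change of 0.41 (SE 0.069, adjusted p = 0.00194). On both probe sets every mutant array lay above every wild type array, and the mutant arrays were close to one another. The changes differed by 0.33 between the probe sets, with the smallest p that an exact permutation test of 3 arrays against 3 allows, 0.1 (two-sided).

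The mig-1 gene (Y34D9B.1), a Frizzled that acts in the response of the Q neuroblast to EGL-20, rose on both of its probe sets. The brighter one read 7.15, 7.12 and 6.98 in mutants, against 6.83, 6.80 and 6.78 for wild type worms, a change of 0.28 (SE 0.072, adjusted p = 0.0162). The second read 6.78, 6.75 and 6.50 in mutants, against 6.36, 6.44 and 6.27 for wild type worms, a change of 0.32 (SE 0.093, adjusted p = 0.0269). Mutant replicate 3 was the lowest mutant array on both, and it still lay above the wild type arrays. Without wild type replicate 3 the second probe set missed the threshold (0.28, adjusted p = 0.0686), while the first kept its call. With array weights the second also fell short (0.27, adjusted p = 0.0509). Without mutant replicate 1 neither passed (0.25 and 0.27, adjusted p = 0.0732 and 0.109). Without mutant replicate 2 both again fell short (0.26 and 0.28, adjusted p = 0.0639 and 0.0966).

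The lin-17 gene (Y71F9B.5) encodes the Frizzled that works with LIN-44 in asymmetric divisions and with LIN-18 in the vulva. Its brighter probe set, 188299_at, read 8.31, 8.15 and 8.35 in mutants, against 7.91, 8.08 and 8.02 for wild type worms. The groups did not overlap, but the gap between the lowest mutant and the highest wild type array was small. The change of 0.26 (SE 0.083, adjusted p = 0.0384) was called on the full set of arrays. It was lost without mutant replicate 1 (adjusted p = 0.126), mutant replicate 3 (0.142), wild type replicate 1 (0.0905) or wild type replicate 3 (0.057), with quantile normalization (0.21, adjusted p = 0.0823), and with the replicate number as a block (adjusted p = 0.0539). The mean over both lin-17 probe sets differed by 0.20 (adjusted p = 0.0566), and centring on the hybridization controls gave 0.40 for the brighter one (adjusted p = 0.012). The dimmer probe set, 173399_s_at, overlapped between the groups and differed by 0.13 (adjusted p = 0.296).

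The mom-5 gene (T23D8.1), a Frizzled known from embryonic polarity and from redundant roles in larvae, gave opposite signs on its probe sets. The brighter one, 174320_at, read 9.31, 9.27 and 9.25 in mutants, against 9.02, 9.07 and 9.06 for wild type worms, a change of 0.23 (SE 0.066, adjusted p = 0.0266). The dimmer one, 193720_at, read 5.19, 4.94 and 5.12 in mutants, against 5.23, 5.31 and 5.41 for wild type worms, a difference of −0.23 (SE 0.088, adjusted p = 0.074). The changes differed by 0.46 between the probe sets (exact permutation p = 0.1, the smallest possible), and their mean gave −0.00 (adjusted p = 0.982). The call on the brighter probe set was lost when any array other than wild type replicate 3 was left out, with changes of 0.21 to 0.24 and adjusted p up to 0.101, and with quantile normalization (0.18, adjusted p = 0.0538). Centring on the hybridization controls gave 0.36 (adjusted p = 0.00746). The direction of mom-5 is therefore not settled by these probe sets.

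The lin-18 gene (C16B8.1), whose Ryk receptor orients the posterior vulval cells together with LIN-17, read 7.68, 7.76 and 7.72 in mutants, against 7.77, 7.69 and 7.74 for wild type worms. The groups overlapped fully, with a difference of −0.02 and a 95% interval of −0.17 to 0.14 (adjusted p = 0.888). Its probe set lay at the 71st percentile of mean signal. Whether lin-18 differs from the Frizzled genes in its change was not tested.

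**Figure D3:**
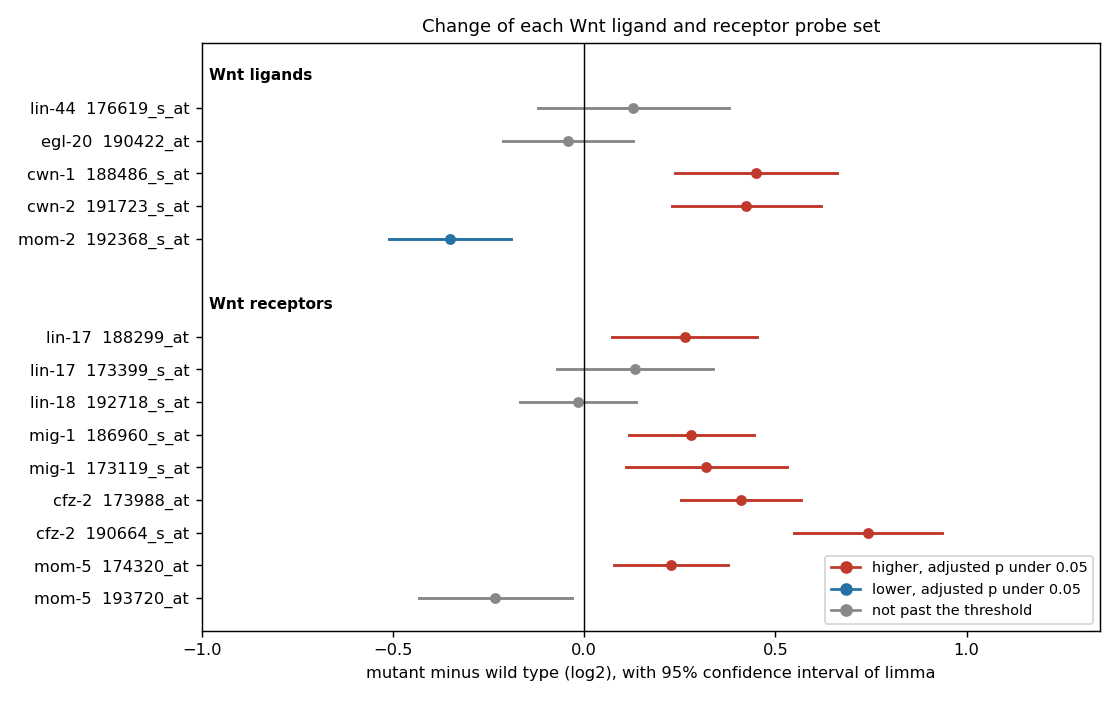
Change of each Wnt ligand and receptor probe set (x axis, mutant minus wild type, log2), with limma's 95% confidence interval, coloured by call. Both cfz-2 probe sets, cwn-1 and cwn-2 lie farthest to the right, mom-2 is the only called fall, and the mom-5 probe sets lie on opposite sides of 0.

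Brightness and call went together among these probe sets. Of the 10 with a mean above the median of all probe sets, 9 were called, and lin-18 was the exception. Of the 4 below it (lin-44, egl-20 and the dimmer probe sets of lin-17 and mom-5), 0 were called by limma, and 1 of them, that of mom-5, had an unadjusted limma p under 0.05. Over the whole array 47.6% of probe sets above the median were called and 19.7% of those below it. Probe sets ending in _s_at, whose probes can match several transcripts, made up 9 of the 14. They gave 5 higher calls and 1 lower call, and the 5 others gave 3 higher calls.

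The calls differed in how far they rested on single arrays. Of the 9 called probe sets, 5 were called whichever array was left out: both of cfz-2, cwn-1, cwn-2 and mom-2. The other 4, those of lin-17, mig-1 and mom-5, each lost the call without at least 1 array. The number of probe sets called higher was 4 without mutant replicate 1 and 5 without mutant replicate 2, and 6 or 7 without any other array. The share of calls lost in this way over the whole array was not computed, so these counts are a description.

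**Figure D4:**
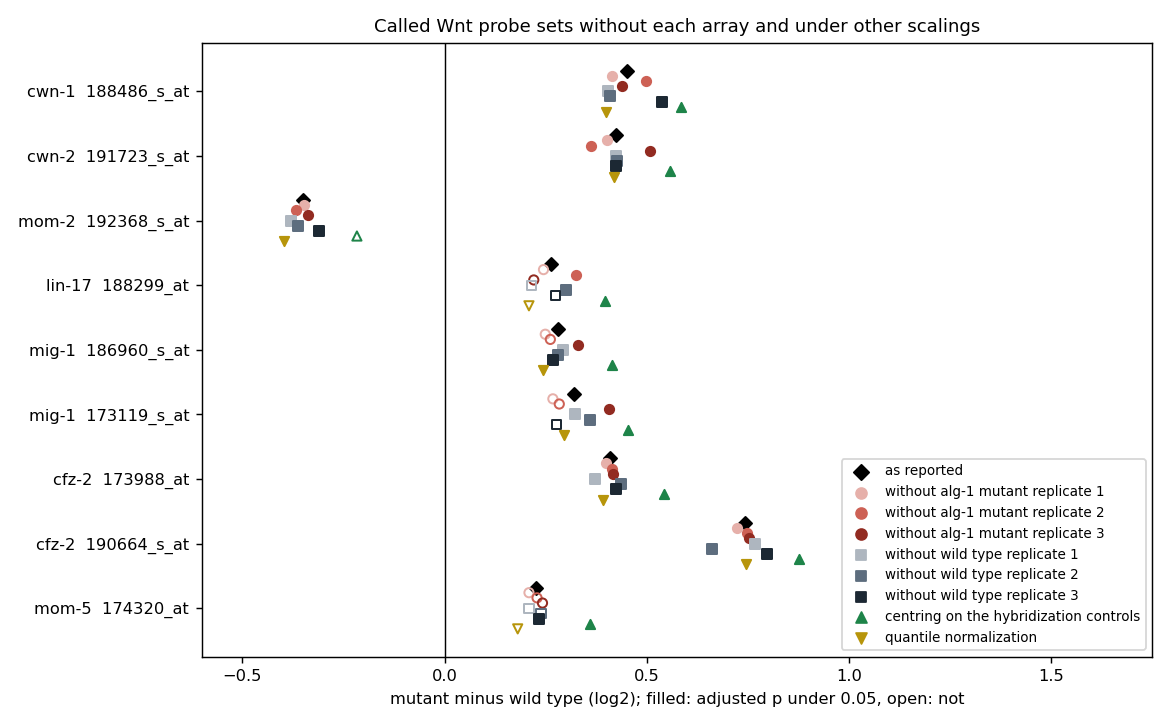
Change of the 9 called probe sets (x axis, mutant minus wild type, log2) with all arrays, without each array in turn and under 2 other scalings. Filled symbols passed an adjusted p of 0.05 and open symbols did not: cfz-2, cwn-1 and cwn-2 stay filled throughout, and mom-5 is open in most settings.

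The other genes of the pathway did not share 1 direction. Of 40 such genes, all measured, 8 rose, 4 fell and 28 were not called, or 20% higher and 10% lower against 14.4% and 20.1% of all genes. Their median change was −0.01. Upstream of the ligands' release, 8 genes of Wnt secretion gave 0 rises and 1 fall. The fall was that of the sorting nexin gene snx-3 (−0.30, adjusted p = 0.0367), which helps to recycle the Wnt carrier, and it was lost with centring on the hybridization controls (−0.16, adjusted p = 0.229) and without mutant replicate 1 (−0.22, adjusted p = 0.141), mutant replicate 3 (adjusted p = 0.111), wild type replicate 1 (adjusted p = 0.0816) or wild type replicate 2 (adjusted p = 0.0714). The genes for the carrier itself, mig-14 (−0.16, adjusted p = 0.0887), and for the acyltransferase that adds the lipid, mom-1 (−0.18, adjusted p = 0.0805), did not pass; both were named after their values were seen. With quantile normalization mig-14 was called lower (−0.20, adjusted p = 0.0341), and without wild type replicate 1 the retromer gene vps-26, also named after its values were seen, was called higher (0.30, adjusted p = 0.0324, against 0.16 and 0.357 with all arrays).

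At the cell surface, 3 of 6 partner genes rose and 0 fell. The cadherin gene fmi-1, the worm Flamingo, rose by 0.83 (SE 0.10, adjusted p = 0.00036), from 5.84 ± 0.14 to 6.68 ± 0.16 (SD, n = 3). The Ror receptor gene cam-1, whose protein can bind Wnts, rose by 0.55 (SE 0.11, adjusted p = 0.00574). On another cam-1 probe set the rise was 0.29 (adjusted p = 0.0155). The gene of the secreted Wnt-binding protein SFRP-1 rose by 0.30 (sfrp-1, adjusted p = 0.0302). That last call was lost under quantile normalization (0.24, adjusted p = 0.0632) and when any array other than wild type replicate 3 was left out.

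Inside the cell, changes were mixed. Of the Dishevelled genes, dsh-1 rose by 0.41 (adjusted p = 0.023) on its brightest probe set, while its others differed by 0.08 and −0.06 and did not pass. The dsh-1 call was lost without any 1 mutant array (adjusted p = 0.0785, 0.0548 and 0.0757). Without wild type replicate 3 the change was 0.27 (adjusted p = 0.0195), and the mean over all dsh-1 probe sets gave 0.14 (adjusted p = 0.108). The other members dsh-2 (−0.12, adjusted p = 0.205) and mig-5 (0.04, adjusted p = 0.781) were not called. In the destruction complex, the casein kinase gene kin-19 fell by 0.49 (SE 0.071, adjusted p = 0.000817), while its second probe set did not pass (−0.16, adjusted p = 0.191). The kinase gene gsk-3 fell by 0.23 (adjusted p = 0.0281), a call lost with centring on the hybridization controls (−0.10, adjusted p = 0.385), with quantile normalization (−0.19, adjusted p = 0.0547), with an intensity trend and robust prior (adjusted p = 0.0561), without mutant replicate 1 (adjusted p = 0.0999) or 3 (0.108), or without wild type replicate 2 (0.0641). Its dimmer probe set differed by −0.08 (adjusted p = 0.545), and the mean over both gsk-3 probe sets by −0.16 (adjusted p = 0.131). The scaffold genes pry-1 (0.08, adjusted p = 0.536) and axl-1 (−0.11, adjusted p = 0.346), both of the Axin kind, and the APC-related apr-1 (0.01, adjusted p = 0.954) did not pass.

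None of the 4 beta-catenin genes was called by limma, and none had an unadjusted p under 0.05. They were bar-1 (0.08, adjusted p = 0.643), which carries canonical signals, wrm-1 (0.06, adjusted p = 0.67) and sys-1 (−0.03, adjusted p = 0.81), which act in asymmetric division, and hmp-2 (−0.07, adjusted p = 0.477), which acts in cell adhesion. The 95% interval for bar-1 ran from −0.19 to 0.36. The largest change in the pathway lists was that of lit-1, the Nemo-like kinase gene. Its level was 10.2 ± 0.09 in mutants and 9.15 ± 0.06 in wild type worms (SD, n = 3). This 2.03-fold rise was a change of 1.02 (SE 0.075, adjusted p = 1.74e-05). Its other probe sets rose by 1.00 (adjusted p = 0.00067) and 0.96 (adjusted p = 0.000113), and all 3 end in _s_at or _x_at. The gene of the upstream adaptor TAP-1 fell by 0.34 (tap-1, adjusted p = 0.00618), a call lost with centring on the hybridization controls (−0.20, adjusted p = 0.0953). The kinase gene mom-4 (−0.13, adjusted p = 0.167) and the TCF gene pop-1 (−0.15, adjusted p = 0.202) did not pass. The dimmer mom-4 probe set differed by −0.31 (adjusted p = 0.0553), and the mean over both mom-4 probe sets by −0.22 (adjusted p = 0.0585).

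Of 10 genes reported as targets of Wnt signalling in particular worm cells, 3 rose and 0 fell. The homeobox gene psa-3, reported as a target in a tail lineage, rose by 0.48 (SE 0.080, adjusted p = 0.00188). The Hox gene lin-39, which acts in vulval precursors, rose by 0.45 (SE 0.087, adjusted p = 0.0041), and mab-5, which acts in the QL neuroblast, by 0.35 (SE 0.079, adjusted p = 0.00842). The second mab-5 probe set rose by 0.46 (adjusted p = 0.0262). The targets egl-18, elt-6 and ceh-22, named after their values were seen, were called higher on a dimmer probe set but not on the brightest. The changes were 0.36 against 0.24 for egl-18, 0.42 against −0.06 for elt-6 and 0.28 against 0.18 for ceh-22. The brightest egl-18 probe set was called in some other settings: without wild type replicate 3 (0.33, adjusted p = 0.0147), with array weights (0.30, adjusted p = 0.0186), with centring on the hybridization controls (0.38, adjusted p = 0.0152) and with the replicate block (adjusted p = 0.0445). That of ceh-22 was called with the same centring (0.32, adjusted p = 0.0246). As means over their probe sets, egl-18 (0.30, adjusted p = 0.00787) and ceh-22 (0.23, adjusted p = 0.0257) passed. The list is a mix of cell-specific genes, and its counts say nothing of signalling strength in any cell.

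**Figure D5:**
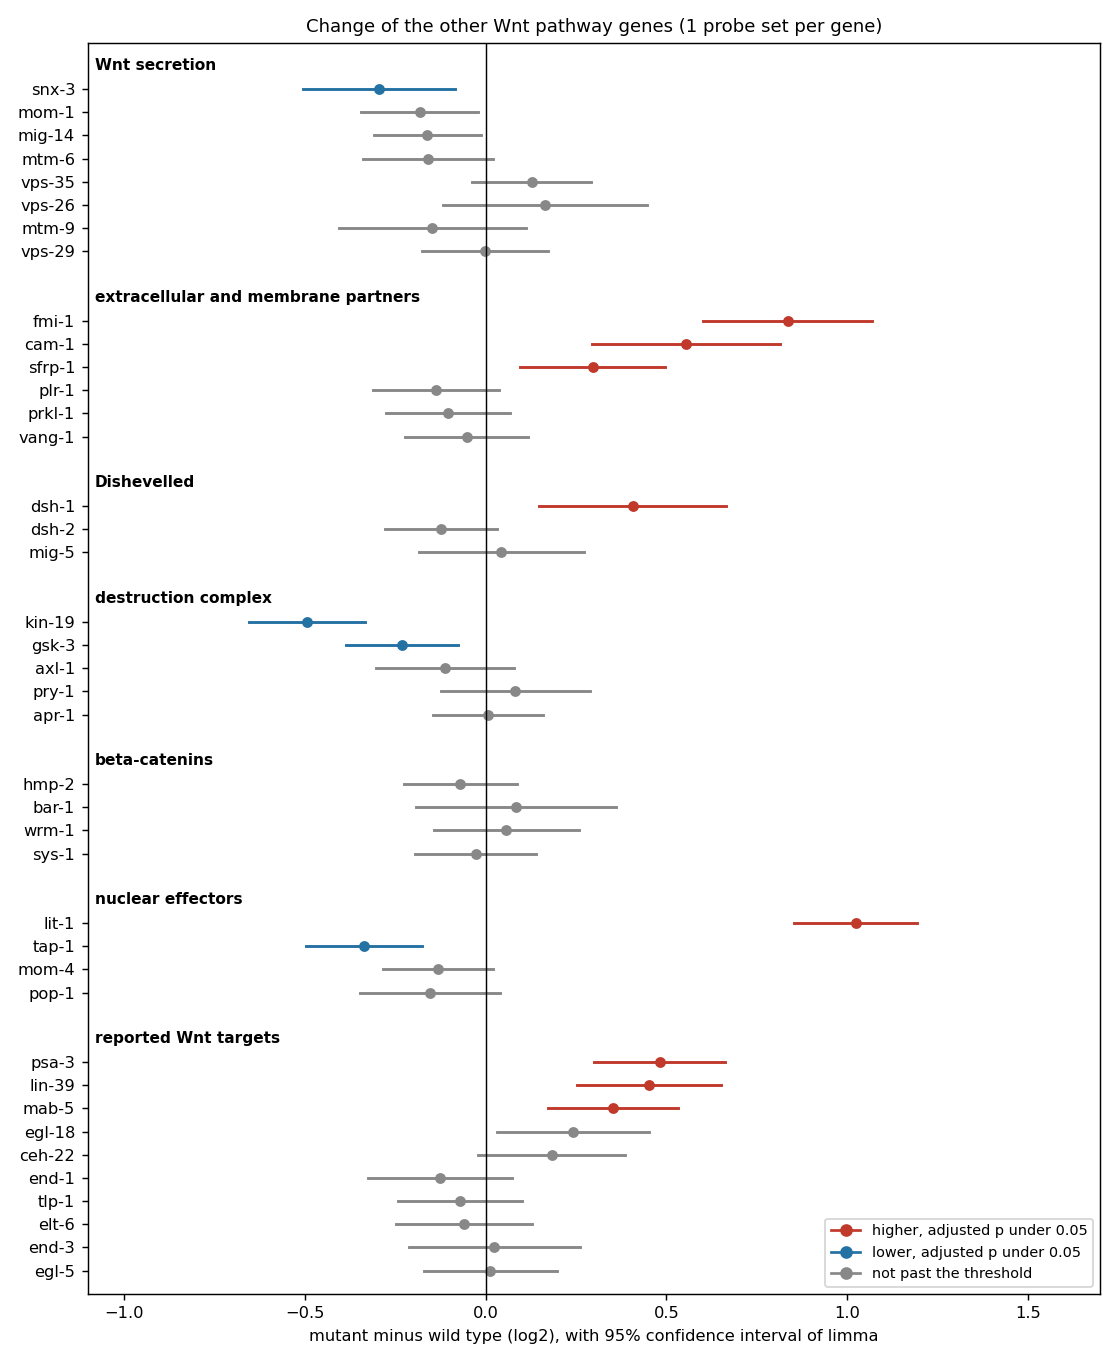
Change of the 40 other Wnt pathway genes, grouped by role (x axis, mutant minus wild type, log2), with limma's 95% confidence interval and coloured by call. The lit-1 gene lies farthest to the right at 1.02, kin-19 has the largest called fall at −0.49, and the beta-catenin genes all span 0.

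Stage markers also differed between these larvae. Of 8 molting cycle markers, genes that rise and fall with each larval molt, 7 rose and 0 fell, with a median of 2.74, and of 7 epidermis and seam markers 4 rose and 1 fell, with a median of 0.77. The molting list varied among wild type arrays as well, at 0.33 on replicate 1, −0.14 on replicate 2 and −0.19 on replicate 3, relative to the wild type mean. Its markers did not share this order. Replicate 1 was far above replicates 2 and 3 on mlt-11 (10.06 against 8.10 and 7.65) and noah-1 (11.08 against 9.58 and 9.97). It was highest by smaller margins on mlt-8, mlt-9 and qua-1, between the others on nas-37, and lowest on mlt-10 and nas-36. These markers were named after their values were seen. Wild type replicate 1, which had the highest molting mean of its group, was the lowest wild type array on 8 of the 14 Wnt probe sets and the highest on 2. The 8 mix directions: they include mom-2 and the dimmer mom-5 probe set, which read lower in the mutant, and the uncalled lin-44 and egl-20. On cwn-1 the margin was small, at 7.80 against 7.81 on replicate 2. The share over all probe sets was not computed, so these counts are a description. Whether a difference in stage within L4 has a part in the changes of the Wnt genes was not tested. Of 6 vulva and anchor cell markers 1 rose and 2 fell, with a median of 0.06.

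The genes whose pattern over the 6 arrays was most like that of cfz-2, read from 190664_s_at as the member probe set with the smallest p, were bcmo-2, T23F6.5 and dao-3. Likeness was the root mean square difference of values centred on the wild type mean, which was 0.03 log2 for bcmo-2, 0.04 for T23F6.5 and 0.04 for dao-3. They rose by 0.77, 0.75 and 0.75. All points share the same 6 arrays and the same genotype difference, so this likeness is a description.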

How the data were processed

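The authors deposited log2 values, 1 for each probe set on each array. Per the submitters' processing notes, Affymetrix Power Tools made them; no source used here gives its version or the methods of background correction and normalization. That the scale is log2 was inferred from the range of 3.14 to 14.9. Array medians were 6.01 to 6.05, and the values were used as deposited. Other scalings ended or added some calls, as given with those genes. The number of arrays limits the precision, and no detection calls were used. The 77 control probe sets were left out. Symbols follow the platform annotation, with newer names taken through gene identifiers from a RefSeq table (WBcel235) that served for names alone. Of the probe sets tested, 20766 had 1 symbol, 887 several and 895 none. Where a gene is given 1 value, it comes from the probe set of highest mean among those with that symbol alone.

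Genotypes were compared with limma 3.58.1 in R 4.3.3 (lmFit, eBayes), two-sided, adjusted by Benjamini-Hochberg over 22548 probe sets. The labels call replicates independent and name no separate cultures. The p-values set each difference against the variation between these samples, which limma moderates over all probe sets. Variation between separate cultures may not be covered by them. The members and lists were chosen with earlier results of these data known. Named were all members, alg-1, up to 3 called genes per pathway list (every gene in lists of 5 or fewer), and the 3 genes most like the member with the smallest p; genes named outside this rule are marked as named after their values were seen. On simulated data for this comparison (22548 probe sets), limma recovered 62.7% of 67 changes sized 0.5 log2 and 92.5% of 67 sized 1 log2. Of 180 calls, 10 were false. The measured data gave 7591 calls, far more than the simulation, which also drew independent noise for each value. These shares therefore do not give the power of the measured comparison, and no change under 0.5 log2 was planted. Alternatives were other scalings, filters, priors, array weights, a replicate block, a stricter threshold, the mean over a gene's probe sets and leaving out arrays.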

Additional observations from a re-analysis of the deposited data

How the results depend on the processing

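Under the 16 alternatives that give probe set values, no called value of a Wnt ligand or receptor probe set turned its sign. Of 210 such values, 187 kept their direction and side of the threshold (for probe sets never called, the side alone), 23 lost a call and 0 gained one. The calls of cfz-2, cwn-1 and cwn-2 held under every alternative that tested their probe sets at a threshold of 0.05, with changes of 0.37 to 0.54 and 0.66 to 0.88 for cfz-2, 0.40 to 0.58 for cwn-1 and 0.36 to 0.56 for cwn-2. For mom-2 the range was −0.40 to −0.22 (adjusted p 0.00239 to 0.0612), and the number of probe sets called lower was 0 with centring on the hybridization controls. At a threshold of 0.01, 4 probe sets were called higher and 4 genes were called. Without probe sets ending in _s_at and _x_at, which leaves fewer to test, 3 were called higher, 0 lower, and 3 genes were called. With the mean over all probe sets of a gene, 5 member genes were called: mom-5 went from 0.23 to −0.00 (adjusted p = 0.982) and lin-17 to 0.20 (adjusted p = 0.0566). Leaving out 1 array gave 4 to 7 probe sets called higher, 1 lower, 4 to 6 genes called and 8 to 13 other pathway genes called. Not called, egl-20 ranged from −0.09 to 0.09 and lin-18 from −0.06 to 0.12. Same-numbered arrays deviated together at r = 0.21, 0.13 and 0.08, which does not settle that the numbers pair them; with the replicate block, 7 probe sets were called higher, 1 lower, 6 genes and 13 other pathway genes, with the call of lin-17 lost (adjusted p = 0.0539). The cause of these shifts was not tested.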
